A study of Homo sapiens with 6 samples.

Results

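The immediate early genes of the EGR and AP-1 families were examined in Rh30 cells, an established cell line from a fusion-positive rhabdomyosarcoma (FP-RMS), after treatment with YK-4-279. The set held 10 genes, EGR1, EGR2, EGR3, FOS, FOSB, FOSL1, FOSL2, JUN, JUNB and IER2, and all 10 were found by symbol among the 35268 named genes of the expression table. The genes were chosen by the measured rise of EGR1, which was among the largest in the treated libraries, together with its relatives by function. The comparison of treated and control cells therefore describes these genes and is not an independent test of them. YK-4-279 is a small molecule described as blocking interactions of ETS transcription factors, and the cells received it at 1 µM for 24 hours. The control cells received the solvent DMSO for the same time. There were 3 libraries of polyadenylated RNA in each group, and all 6 came from the same line, which carries the PAX3-FOXO1 fusion. No second line and no earlier time point were measured in these libraries. The comparison asks how the drug changes expression in FP-RMS cells. The labels do not say that the replicates came from separate cultures, so the p-values below measure the spread between these samples only.

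Immediate early genes are transcribed without new protein synthesis when cells receive growth factors, serum, calcium signals or stress. Signals that run through RAS and ERK kinases activate ETS-type cofactors of serum response factor (SRF) at CArG boxes, while CREB and its relatives act at cAMP response elements. EGR proteins are zinc finger transcription factors. FOS proteins must pair with JUN proteins to bind DNA as the AP-1 dimer, whereas JUN proteins can also pair with each other. The transcripts of this class are usually short-lived, and their response to a single stimulus is known for being brief.

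The bases before the transcription start are shown for 7 of the genes, because CArG boxes and cAMP response elements near the start are known to mediate induction of this class of genes. EGR2 is shown as the gene without a match to the marked motifs. Sequences run 5′ to 3′ on the strand of the gene, from hg38, with the start as RefSeq places it on GRCh38.p14. Capitals mark matches on either strand to the CArG box, to the core of the cAMP response element (TGACG, which reads CGTCA on the other strand) and to a TATA box (TATAAA). The last 150 bases before the start were as follows.
EGR1, chr5:138465329-138465478, plus strand: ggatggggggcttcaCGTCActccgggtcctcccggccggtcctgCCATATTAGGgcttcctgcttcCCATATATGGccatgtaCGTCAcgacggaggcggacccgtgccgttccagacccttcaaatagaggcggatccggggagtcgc
FOS, chr14:75278678-75278827, plus strand: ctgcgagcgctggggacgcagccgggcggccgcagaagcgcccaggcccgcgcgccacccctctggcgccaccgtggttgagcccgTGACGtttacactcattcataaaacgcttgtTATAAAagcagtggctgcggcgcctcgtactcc
FOSB, chr19:45467846-45467995, plus strand: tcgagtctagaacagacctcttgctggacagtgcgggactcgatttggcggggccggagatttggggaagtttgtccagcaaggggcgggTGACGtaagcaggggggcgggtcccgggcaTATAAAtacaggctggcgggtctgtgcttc
JUNB, chr19:12791336-12791485, plus strand: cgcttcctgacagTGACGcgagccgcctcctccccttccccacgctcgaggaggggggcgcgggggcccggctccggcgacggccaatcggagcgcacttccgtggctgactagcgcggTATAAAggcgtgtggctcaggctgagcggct
JUN, chr1:58784048-58784197, minus strand: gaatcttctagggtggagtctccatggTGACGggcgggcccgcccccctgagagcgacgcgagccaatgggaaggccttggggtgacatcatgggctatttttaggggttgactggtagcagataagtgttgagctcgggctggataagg
IER2, chr19:13150261-13150410, plus strand: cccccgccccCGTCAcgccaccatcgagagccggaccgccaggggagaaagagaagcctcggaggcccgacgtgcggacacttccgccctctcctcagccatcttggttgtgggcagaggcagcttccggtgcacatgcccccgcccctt
EGR2, chr10:62819168-62819317, minus strand: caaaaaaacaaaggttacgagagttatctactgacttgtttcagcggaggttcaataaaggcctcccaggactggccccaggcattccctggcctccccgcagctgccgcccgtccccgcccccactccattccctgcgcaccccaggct

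EGR1, FOS and FOSB held further CArG boxes upstream of these stretches, which are shown with the same marking. EGR1 had 3 between bases -418 and -355, and the others had 1 each, at -314 to -305 and at -274 to -265.
EGR1, chr5:138465049-138465128, plus strand: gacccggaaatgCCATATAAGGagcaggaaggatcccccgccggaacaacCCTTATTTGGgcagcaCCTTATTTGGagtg
FOS, chr14:75278498-75278547, plus strand: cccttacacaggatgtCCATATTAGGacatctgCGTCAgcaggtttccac
FOSB, chr19:45467666-45467745, plus strand: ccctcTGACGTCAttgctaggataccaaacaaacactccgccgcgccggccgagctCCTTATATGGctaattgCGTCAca

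The promoter table, which covers 250 bases before and 50 after each start, matched 8 of the 10 genes, without EGR3 and FOSL1. The TGACG core was present in 7 of these 8 (EGR1, FOS, FOSB, FOSL2, JUN, JUNB and IER2) and in 25% of all 27305 promoters. A CArG box was found in 1 of the 8, EGR1, and in 1.29% of all promoters. TATAAA occurred in FOS, FOSB and JUNB and in 12% of all promoters. Of the other motifs searched, the ETS core CCGGAA was in FOSB and IER2 (17.6% of all promoters), the EGR site GCGNGGGCG in EGR1 (9.28%), and the AP-1 site TGANTCA in FOSL2 (7.76%). Over the 500 bases before the start, EGR1 held 5 CArG boxes, FOS 1 and FOSB 1, against a CArG box in 2.41% of all promoters. In the same 500 bases EGR1 held 3 ETS cores and FOSB and IER2 1 each, so that 3 of the 8 genes had one, against 20.1% of all promoters. The only overlap among the matches over those 500 bases in these genes was that of 2 TGACG cores in FOSB, on opposite strands of one palindromic element. A match is a run of letters and not a measured binding site, and factor binding was not measured in these libraries.

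**Figure D1:**
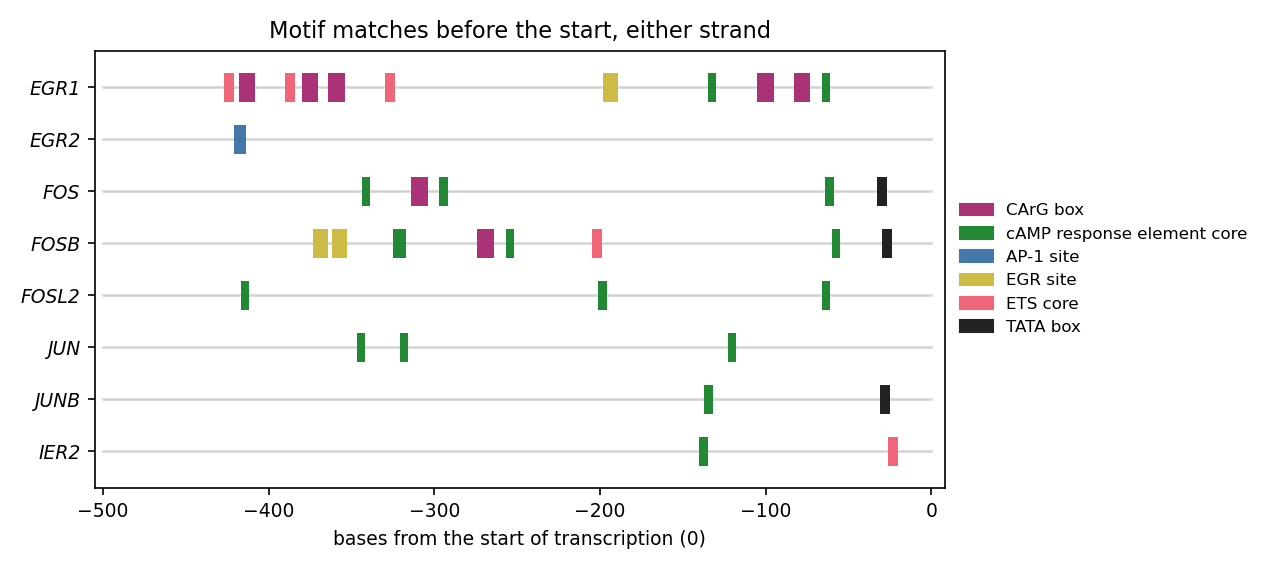
Matches to 6 motifs over the 500 bases before the transcription start (x axis, bases from the start) in the 8 genes with a promoter entry, each box drawn to scale and coloured by motif. EGR1 shows 5 CArG boxes and FOS and FOSB 1 each, and TGACG cores lie in every gene shown except EGR2.

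The libraries held between 16724650 and 24677433 reads on named genes. DMSO replicate 1 was the shallowest and stood apart. Its correlation with the other libraries over all genes averaged 0.9888, where no other library was below 0.9923, and mitochondrial transcripts took 6.05% of its reads and 4.74% to 5.03% in the rest. All 10 rhabdomyosarcoma and myogenic markers were expressed, with MYOD1 at a mean of 36993 normalized counts. This matched the label of a rhabdomyosarcoma line, but no feature particular to Rh30 was examined. Among the 5 blood cell markers none reached a mean of 10, with CD68 at 0 in every library, and of the 5 epithelial markers only EPCAM did, at 64.6. Of the 4 endothelial markers 3 reached it, the highest being PECAM1 at 22.1. The summed level of the 5 fibroblast markers was 973 to 1065 in the DMSO libraries and 1220 to 1306 in the treated libraries, carried mainly by COL1A1, which was called (log2 fold change 0.34), while DCN and COL1A2 lay below a mean of 10. The part of these markers in the results was not tested. In bulk RNA, more cells expressing a gene and more RNA per cell cannot be told apart.

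In each EGR gene every treated library lay above every DMSO library, and EGR3 was too low to be tested. EGR1 (chromosome 5, 138465479 to 138469303), a zinc finger factor induced by serum and ERK signals, had 257, 291 and 291 normalized counts in DMSO replicates 1, 2 and 3, and 572, 581 and 641 in YK-4-279 replicates 1, 2 and 3. The lowest treated library was far above the highest control library, and the spread within each group was small, with a coefficient of variation of 6.91% and 6.32%. The log2 fold change was 1.10 with a standard error of 0.09, a ratio of means of 2.14. EGR1 ranked 3 by fold change among the 10699 tested genes whose mean reached 100 normalized counts, after H2BC5 at 1.51 and CDKN2B at 1.15 and before NR1D1 at 0.97 and SLFN5 at 0.97. It was chosen for this rise.

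EGR2 (chromosome 10, 62811996 to 62819167), known for its role in myelination of peripheral nerves, was expressed at a lower level than EGR1. Its normalized counts were 41.6, 53.0 and 43.4 with DMSO and 83.1, 72.8 and 99.0 with the drug. The groups did not overlap, and the log2 fold change was 0.87 (standard error 0.18). These values rest on 33 to 53 reads in each control library and 67 to 99 in each treated library. EGR3, a family member linked to muscle spindle development, was close to the limit of detection and was not tested. It had 0 reads in each DMSO library and 10, 4 and 1 reads in the treated libraries, which correspond to 8.57, 4.35 and 1.00 normalized counts. The treated mean of EGR3 was 4.6-fold a floor of 3 reads over the DMSO group. That floor allows for counting error in the DMSO libraries only, so the figure is not a lower limit on the change. It was 2.7-fold without YK-4-279 replicate 1, which held 10 of the 15 reads.

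Of the FOS family, FOS and FOSB had the larger log2 fold changes and FOSL2 the smallest, and differences between members were not tested. FOS (chromosome 14, 75278826 to 75282230), the prototype of the family, had 47.9, 33.0 and 46.8 normalized counts with DMSO and 97.7, 73.9 and 98.0 with YK-4-279. Each treated library lay above each control library, and the log2 fold change was 1.07 (standard error 0.20), from 33 to 56 reads per control library and 68 to 114 per treated library. For FOSB (chromosome 19, 45467995 to 45475179), a close relative of FOS, the control values were 42.9, 32.0 and 19.2 normalized counts and the treated values 58.3, 73.9 and 61.0. It varied most among the controls, with a coefficient of variation of 37.8% over the DMSO libraries against 12.9% over the treated ones, and DMSO replicate 1 was here the highest control library. The log2 fold change of FOSB was 1.08 (standard error 0.26).

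FOSL1 (chromosome 11, 65892049 to 65900573), which encodes the FOS-related antigen FRA1, showed overlapping groups. Its normalized counts were 45.4, 59.0 and 56.8 with DMSO and 58.3, 69.5 and 96.0 with YK-4-279, so that treated replicate 1 lay within the range of the controls. The log2 fold change was 0.45 (standard error 0.21), and 0.25 without YK-4-279 replicate 3. FOSL2 (chromosome 2, 28392448 to 28417317), which encodes FRA2, was the most abundant FOS family transcript. Control libraries held 2347, 2752 and 2702 normalized counts, and treated libraries 2821, 2761 and 2851. The groups did not overlap, but treated replicate 2 exceeded DMSO replicate 2 only narrowly, and the log2 fold change was 0.12 (standard error 0.07, 95% confidence interval -0.03 to 0.26), falling to 0.04 without DMSO replicate 1.

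Of the JUN genes in the set, JUN was called and JUNB was not, and in both every treated library lay above every DMSO library. JUN (chromosome 1, 58776845 to 58784048), the main DNA-binding partner of FOS proteins, had 8008, 9331 and 8793 normalized counts with DMSO and 11552, 11566 and 11119 with YK-4-279. The groups were well separated at this depth of 6351 to 13482 reads per library, and the log2 fold change was 0.39 (standard error 0.06). JUNB (chromosome 19, 12791486 to 12793315), which can oppose JUN at some promoters, was measured at 388, 606 and 649 normalized counts in control cells and 812, 741 and 723 after treatment. DMSO replicate 1 was far below the other controls, and the coefficient of variation was 25.5% over the DMSO libraries against 6.2% over the treated ones. The log2 fold change of JUNB was 0.50 (standard error 0.15), and 0.27 without DMSO replicate 1.

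IER2 (chromosome 19, 13150411 to 13154911), a serum-induced gene whose product is a small nuclear protein, followed the pattern of JUNB. It had 369, 591 and 582 normalized counts with DMSO and 721, 737 and 777 with YK-4-279. The groups did not overlap, the same control library was lowest, and the log2 fold change was 0.57 (standard error 0.14), or 0.34 without DMSO replicate 1. That library was also the lowest control for EGR1, EGR2, FOSL1, FOSL2 and JUN, and the highest for FOS and FOSB. The part of its lower depth and its larger mitochondrial share in these values was not tested.

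**Figure D2:**
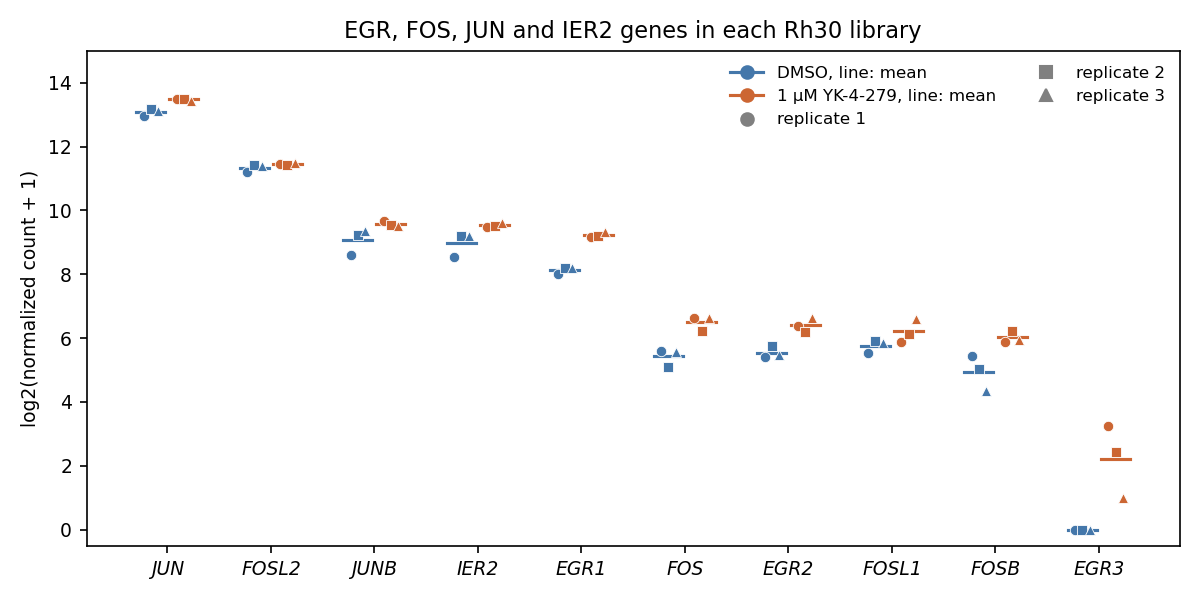
Expression of the 10 genes in each library, as log2(normalized count + 1), with DMSO in blue, YK-4-279 in orange, a marker shape per replicate and a line at the mean of each group. Treated libraries lie above all DMSO libraries for each gene except FOSL1, and DMSO replicate 1 (blue circle) lies well below the other controls for JUNB and IER2.

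Taking the set as a whole, 9 of the 10 genes had a mean of at least 10 normalized counts and were tested, and all 9 had a positive log2 fold change, with a median of 0.57 against -0.01 for all 13930 genes tested. At an adjusted p-value under 0.05 in limma, EGR1, EGR2, FOS, FOSB, JUN and IER2 were called, 6 of 9, all of them higher. Over all genes tested, 3.41% were called, 1.26% as higher and 2.15% as lower. Higher genes made up 37.1% of these calls, and 47.7% after quantile normalization. In 8 of the 9 genes tested every treated library lay above every DMSO library, against 10.9% of all genes tested. As the set was chosen on this comparison, these counts describe it. EGR1 was called in each of the 6 fits that left out a library, with log2 fold changes from 1.04 to 1.13. Without YK-4-279 replicate 1 or 2 it was the only gene of the set called, and without replicate 3 only EGR1 and JUN were, whereas JUNB was called as well without any 1 of the DMSO libraries. EGR2 and FOSB were not called without DMSO replicate 3. IER2 was not called with TMM scaling, nor FOSB without the filter on the mean.

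**Figure D3:**
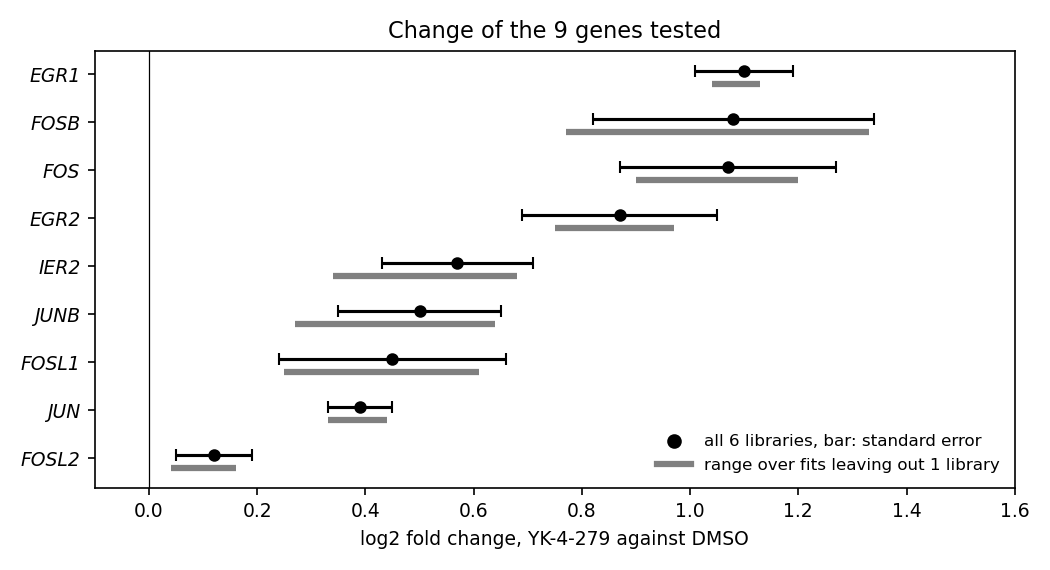
Log2 fold change of YK-4-279 against DMSO for the 9 genes tested, as points with the standard error from limma, over grey bars for the range of the 6 fits that each left out a library. EGR1, FOSB, FOS and EGR2 lie between 0.87 and 1.10, IER2, JUNB, FOSL1 and JUN between 0.39 and 0.57, and FOSL2 at 0.12.

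Levels between genes were compared per length, as normalized counts per kb of the median GENCODE transcript. JUN was by far the most abundant, at 2674 ± 204 per kb with DMSO and 3504 ± 78.2 per kb with the drug (SD, n = 3 each). FOSL2 followed at 774 ± 65.8 and 837 ± 13.7 per kb, then JUNB at 299 ± 76.3 and 415 ± 25.7 per kb and IER2 at 244 ± 59.4 and 353 ± 13.9 per kb. JUNB and IER2, neighbours in this order, overlapped among the control libraries (212 to 355 and 175 to 280 per kb) but not among the treated ones (395 to 444 and 342 to 368 per kb). By the longest transcript FOSL2 overlapped JUNB, at 350 to 410 per kb with DMSO and 411 to 425 per kb with the drug, so that their order depends on the length used. EGR1 came next, at 89.1 ± 6.16 and 191 ± 12.0 per kb. With DMSO, FOS at 52.2 ± 10.2 per kb and FOSL1 at 44.8 ± 6.07 per kb did not differ beyond their spread. With the drug FOS lay above FOSL1, at 90.7 to 120 against 48.6 to 80 per kb. EGR2 and FOSB were lowest among the genes tested, at 16.5 ± 2.18 and 9.74 ± 3.68 per kb with DMSO. JUN made up 68% to 70.7% of the summed per-kb level of the 6 AP-1 genes in the DMSO libraries and 70% to 71.7% in the treated ones. FOS and FOSB together made up 1.22% to 2.07% of that sum with DMSO and 2.3% to 2.86% with YK-4-279. By the longest transcript the share of FOS and FOSB was 0.659% to 1.11% with DMSO and at least 1.23% in each treated library, and JUN made up 76.8% to 79.8% over the 6 libraries.

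Gene structure varied within the set. The canonical transcripts of JUN and JUNB have 1 exon, those of the EGR genes and IER2 have 2, and those of the 4 FOS family genes have 4, and the genes span from 1830 bases in JUNB to 24870 in FOSL2. Several genes overlap another annotated gene on the opposite strand, FOSB with ERCC1, JUNB with HOOK2, FOSL2 with FOSL2-AS1, and IER2 and EGR3 with unnamed long noncoding RNAs, while EGR2 and FOSL2 overlap an unnamed noncoding RNA on their own strand. The strand setting used in counting is not given in the sources used here, so that reads of these pairs may not have been told apart.

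The surrounding pathway was described with 6 gene lists that leave out the 10 genes above. Some genes stand in more than 1 list, among them ATF3, DUSP1 and NAB1. The lists were chosen with earlier results of these data known, so the shares called describe them and are not an independent test. The first list held 37 other immediate early genes, of which 32 were tested. In it, 9 rose and 0 fell at an adjusted p-value under 0.05 (28.1% called, against 3.41% of all genes), 23 did not pass, and the median log2 fold change was 0.28. The largest rise was that of NR4A3, an orphan nuclear receptor of the immediate early class, from 19.8 ± 6.15 normalized counts to 63.3 ± 14.0 (SD, n = 3 each), or 1.65 on the log2 scale (limma adjusted p = 0.00705). CCN2, which encodes connective tissue growth factor, rose by 0.63 (adjusted p = 0.00473), and PPP1R15A, which encodes the GADD34 subunit that restores translation after stress, rose by 0.57 (adjusted p = 0.00705), both in limma on the log2 scale. The other genes called were ATF3, BHLHE40, CCN1, DUSP1, KLF4 and PLK2, with log2 fold changes of 0.43, 0.46, 0.35, 0.40, 0.49 and 0.37. ZFP36L1, an mRNA decay factor, was the most highly counted gene of this list and differed by -0.00 on the log2 scale (standard error 0.05). Without YK-4-279 replicate 1 or 2 no gene of this list was called, and without replicate 3 there was 1.

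The next list held other bZIP genes of the AP-1 and CREB families. Of 15 tested, 2 rose and 0 fell (13.3% called, against 3.41% of all genes), with a median log2 fold change of 0.07. The genes called were ATF3, a stress-induced factor, from 991 ± 67.7 to 1338 ± 54.1 normalized counts (SD, n = 3 each, limma adjusted p = 0.00741), and MAF, at 0.37 on the log2 scale (limma adjusted p = 0.0358). MAF was not called after quantile normalization (adjusted p = 0.0505) or with a replicate block (adjusted p = 0.0754), nor without DMSO replicate 3 (adjusted p = 0.111), and 0 genes of the list were called by eBayes without trend or without any 1 of the YK-4-279 libraries. JUND, the JUN family member with steady expression in many cells, stood at 3410 ± 334 normalized counts in control cells and 3388 ± 199 in treated cells (SD, n = 3 each), which is within the spread of either group.

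The 27 upstream activators, which included SRF and its cofactors and the RAS, RAF, MEK, ERK and RSK genes, centred on a log2 fold change of -0.05 (median), with 0 called higher and 1 lower. This is 3.7% of the list, near the 3.41% of all genes tested. The gene called was ELK3, an ETS factor of the ternary complex at CArG boxes, which fell from 1735 ± 164 normalized counts to 1416 ± 36.8 (SD, n = 3 each, limma adjusted p = 0.0487). It was not called, and the list then had 0 genes called, with TMM scaling (adjusted p = 0.0608), in edgeR (adjusted p = 0.0545), after quantile normalization, by eBayes without trend, with a replicate block (adjusted p = 0.105), or without DMSO replicate 3 or any 1 of the YK-4-279 libraries. The list had 6 genes called without DMSO replicate 1, 3 without DMSO replicate 2 and 5 with trends on GC content and length taken out, in both directions, where 1823, 676 and 1849 of all 13930 genes were called. Activity of these kinases is set by phosphorylation, which RNA does not measure.

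Of 22 feedback regulators tested, 3 rose and 1 fell (18.2% called, against 3.41% of all genes), with a median log2 fold change of 0.14. The genes that rose were DUSP8, DUSP5 and DUSP1, phosphatases that inactivate MAP kinases, at 0.53, 0.44 and 0.40 on the log2 scale (limma adjusted p = 0.0214, 0.0492 and 0.0403). NAB1, a corepressor of EGR proteins, fell by 0.29 on the log2 scale (limma adjusted p = 0.0363). In this list 0 genes were called with a replicate block, by eBayes without trend or without any 1 of the YK-4-279 libraries, 1 after quantile normalization or without DMSO replicate 3, 2 without DMSO replicate 2 and 8 without DMSO replicate 1, where 1823 of all 13930 genes were called. With trends on GC content and length taken out, 8 were called in this list, in both directions, and 1849 of all 13930.

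Genes described in other systems as targets of these factors moved in both directions. The list of genes described as AP-1 targets held 18, of which 9 were tested. The others were too low, with MMP1, MMP13 and IL6 at 0 in every library. HMOX1, which encodes heme oxygenase, rose from 215 ± 42.4 normalized counts to 323 ± 27.5 (SD, n = 3 each, limma adjusted p = 0.032). The other 8 genes tested did not pass (11.1% called, against 3.41% of all genes). HMOX1 was not called after quantile normalization, by eBayes without trend or without any 1 of the YK-4-279 libraries, and without DMSO replicate 1 there were 4 genes called in this list and 1823 of all 13930. With trends on GC content and length taken out, 5 were called in this list, in both directions, and 1849 of all 13930. The intermediate filament gene VIM, with the most counts here, differed by -0.04 on the log2 scale (standard error 0.07). Among 17 tested genes described as EGR1 targets, 2 rose and 3 fell (29.4% called, against 3.41% of all genes), with a median log2 fold change of 0.04. In this list 3 genes, 2 higher and 1 lower, were called after quantile normalization, with a replicate block or without DMSO replicate 3, 1 without any 1 of the YK-4-279 libraries, and 0 by eBayes without trend. GDF15, a stress-induced cytokine, rose by 0.56 on the log2 scale (limma adjusted p = 0.00741). IGF2, a growth factor highly expressed in this line, fell from 17896 ± 833 normalized counts to 12711 ± 627 (SD, n = 3 each), or by 0.49 on the log2 scale (limma adjusted p = 0.00118), and NAB1 and PDGFA were the other genes that fell. After quantile normalization, with a replicate block or without DMSO replicate 3, IGF2 was called and NAB1 and PDGFA were not.

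**Figure D4:**
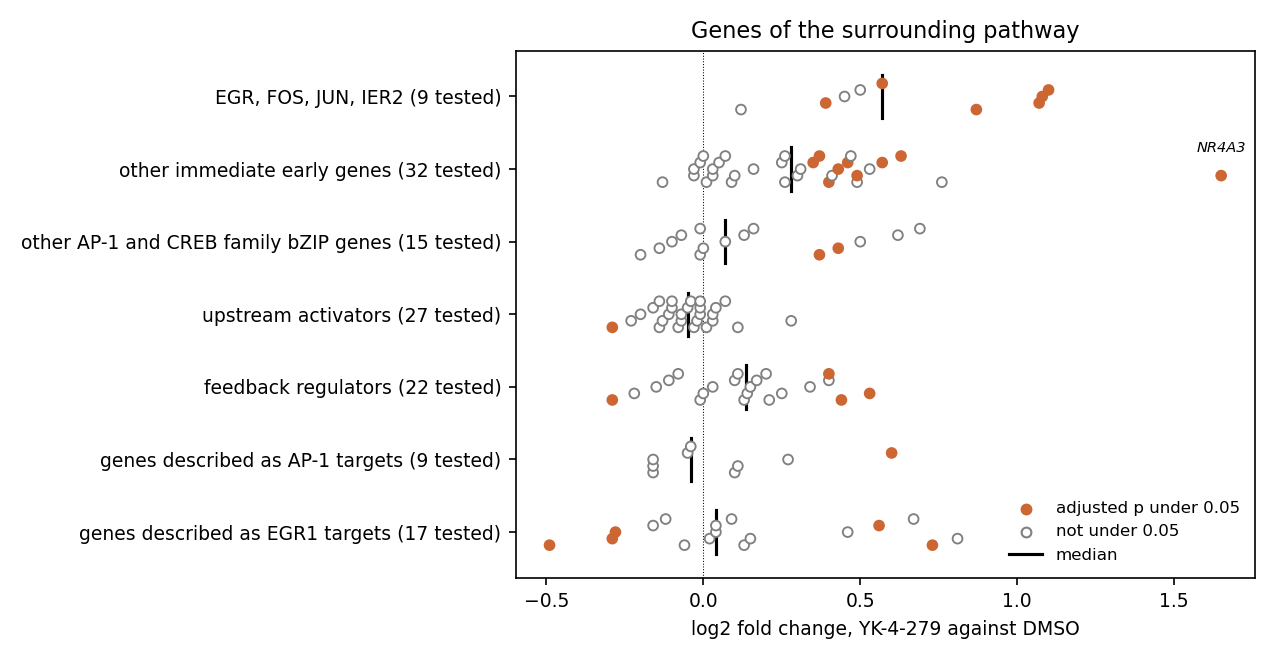
Log2 fold change of each tested gene in the EGR, FOS, JUN and IER2 set and in the 6 pathway lists (rows), filled where the adjusted p-value was under 0.05, with a line at the median of each row. The medians are 0.57 for the set and 0.28 for the other immediate early genes, and lie between -0.05 and 0.14 for the other lists, and some genes stand in more than 1 list.

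The genes whose profile lay nearest to that of EGR1 were sought among the same 10699 genes of higher expression, by the root mean square difference over the 6 libraries of log2 values set to the DMSO mean of each gene. The nearest were SLFN5 (difference 0.094), the CDK inhibitor gene CDKN2B (0.113), the apoptosis gene BMF (0.13), the clock repressor gene NR1D1 (0.151) and ID2 (0.170), an inhibitor of basic helix-loop-helix factors. SLFN5, for instance, had 121, 132 and 133 normalized counts with DMSO and 249, 241 and 267 with YK-4-279. For FOS the nearest genes were NR1D1, BMF, SLFN5, ID2 and EGR1, at larger differences of 0.196 to 0.243. These likenesses rest on 6 libraries and largely on the difference between the groups. FOS, FOSB, FOSL1, EGR2 and EGR3 had means under 100 and could not be among the genes named.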

How the data were processed

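RNA of 6 Rh30 samples was sequenced, 3 treated with DMSO and 3 with YK-4-279. According to the methods, adapters were removed with BBDuk, and STAR 2.7.9a served for alignment to hg38 and for gene counts. The annotation and strand setting are not given in the sources used here. The submitters' processing notes name DESeq2 1.44.0. The authors deposited, for each gene, a normalized count (a signal), which is the read count times a factor of the library, and 100% of the values in each library gave whole reads (tolerance 0.01). Of 35269 rows, 1 without a gene name (at most 6 reads) was left out.

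Treated and control libraries were compared by limma 3.58.1 in R 4.3.3, with trended empirical Bayes variances, after taking log2(normalized count + 1) of 13930 genes with a mean of at least 10. Tests were two-sided with Benjamini-Hochberg adjustment, and the added 1 makes differences of sparsely read genes too small. edgeR 4.0.16 and DESeq2 1.42.0 were run on the recovered reads as alternatives. The limma test was planned for normalized values and was also run on simulated reads. Those reads held no outlying library, so they cannot show how the test deals with DMSO replicate 1. The genes and lists were chosen with earlier results of these data known. All 10 genes of the set are named. In each list the gene with the highest mean and up to 3 with the largest change among those with an adjusted p-value under 0.05 are named with values, and further genes called in short lists were named after their values were seen. Some genes that this rule names are not reported here. The 500-base window, the TATA box, the removal of GC content and length trends, the EGR3 folds over the floor without single libraries and the shares by longest transcript were added after seeing the data. Positions, exons and lengths are from GENCODE v44 on hg38, and all 27305 RefSeq promoters had the same letters in that genome.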

Additional observations from a re-analysis of the deposited data

How the results depend on the processing

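The 9 genes tested kept a positive log2 fold change under every alternative run, and EGR1 was called in all 17. FOSL1 and FOSL2 were called in none. The calls of the others depended on single libraries, the variance model, the scaling or the filter, and the causes were not tested. Of the set, 6 genes were called. Requiring a mean of 100 gave 3 of 5 tested, quantile normalization gave 3, eBayes without trend gave 1, and leaving out single libraries gave 1 to 7. Over all genes 475 were called, 277 after quantile normalization, 33 by eBayes without trend, 180 with a replicate block, 1849 once trends with GC content and length were taken out, and from 19 (without YK-4-279 replicate 1) to 1823 (without DMSO replicate 1) across the leave-out fits. The share of higher calls was 37.1%, against 47.7% after quantile normalization, 90.9% by eBayes without trend and 25% with the trends taken out.

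The pathway lists together had 19 genes called, 10 after quantile normalization, 1 by eBayes without trend, 10 with a replicate block, 36 with the trends taken out, and from 1 to 35 across the leave-out fits. The other immediate early genes had 9 called, 1 with eBayes without trend, and from 0 to 12. Genes near 0 changed sign without passing the threshold. JUND went to 0.01 with TMM scaling and edgeR, 0.00 with DESeq2 and without DMSO replicate 2, 0.06 with quantile normalization and without DMSO replicate 3, and 0.04 without YK-4-279 replicate 2, with a range of -0.08 to 0.06 over the leave-out fits. ZFP36L1 went to 0.01 with TMM scaling, edgeR and DESeq2 and without DMSO replicate 2 or YK-4-279 replicate 3, and to 0.05 with quantile normalization (leave-out range -0.02 to 0.01). VIM went to 0.04 without DMSO replicate 1 (leave-out range -0.09 to 0.04).

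Deviations of same-numbered samples were not positively correlated (-0.098, -0.027 and -0.027), which does not settle whether replicate numbers pair the samples. With a replicate block 4 of the 9 genes were called, EGR1, FOS, IER2 and JUN. With the longest transcript as length, FOS had 31.5 per kb in place of 81.2 over both groups and FOSL2 403 in place of 805, so that FOS lay below FOSL1 with DMSO (15.7 to 22.8 against 26.7 to 34.6) and overlapped it with the drug, and FOSL2 overlapped JUNB. Over 100 bases before the start, 4 of 8 promoters held TGACG (12.1% of all promoters), 1 the CArG box (0.56%), 3 TATAAA (5.34%), 1 the ETS core (9.15%), and 0 the AP-1 site (2.7%) or the EGR site (4.84%). No protein sequences were analysed here.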
